A study of Mus musculus with 10 samples.

Results

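The normal mandibular prominence (MNP), the paired outgrowth of the first pharyngeal arch that builds the jaw below the mouth, was described at embryonic day 10.5 (E10.5) from the wild-type libraries WT 3 and WT 4. They are 2 of the 4 wild-type samples and of the 10 samples in the labels of a series that also holds conditional mutants, and no mutant library entered any value below. Both carry the genotype wild-type, with no allele or agent named, and come from CD1 mice, an outbred stock. MNPs were dissected and frozen, polyA RNA was extracted, and the sources used here do not say whether a library holds 1 embryo or several, or of which sex. Estimated read counts were available for 105129 transcripts, which were summed over 33641 gene symbols, 21846 of them protein-coding. WT 3 held 49545102 estimated counts and WT 4 held 21420197.

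Levels of different genes are given as TPM, which divides the counts of each transcript by its length and scales each library to 1000000. One gene is compared between the libraries as CPM, counts scaled to the same total without division by length. Where a gene is followed by a pair of values joined by "and", the first is WT 3 and the second WT 4. A gene was called expressed at 1 TPM or more in both libraries, and with n = 2 the pair of values is itself the spread. With 1 library against 1 library there is no replicate check on any difference between them, and no p-value is given. Counting intervals cover counting error at most. They can be too narrow even for that, because PCR reads without molecular identifiers are not independent molecules.

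As background, neural crest cells that leave the dorsal neural tube fill the MNP and form its mesenchyme, around a core of mesoderm and under a cover of surface ectoderm and pharyngeal endoderm. The epithelia release hedgehog, Fgf, Bmp, Wnt and endothelin signals, and the crest cells answer through transcription factors (TFs) laid out along the proximal to distal and oral to aboral axes. Crest of the first arch is known for lacking Hox gene activity, while the arches behind it carry it.

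Of the 21846 protein-coding genes, 12599 (57.7%) were expressed in both libraries. Most were at moderate levels. By mean TPM, 7239 protein-coding genes lay from 10 to 100, 1679 from 100 to 1000 and 137 at 1000 or more, while 5578 lay under 0.1. The 10 highest genes held 5.38% of all TPM in WT 3 and 6.07% in WT 4, and the 1000 highest held 57.5% and 59.6%. Protein-coding genes took 97.9% and 97.7% of the estimated counts. The files list few long noncoding genes, with 38 lincRNA and 8 antisense symbols, and lack Xist, H19 and Meg3. This share therefore depends on the genes that were counted. Across 13591 genes with a mean of 1 CPM or more, the rank correlation between the libraries (Spearman) was 0.979, a description over genes of 1 pair of libraries rather than over independent samples.

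The 20 highest protein-coding genes included those of translation, glycolysis, the mitochondrial genome, red blood cells and the cytoskeleton. Eef1a1, an elongation factor that brings tRNA to the ribosome, led with 8793 and 9513 TPM. Ptma, a small acidic protein of proliferating cells, stood at 5130 and 4467 TPM. Gapdh, a glycolytic enzyme, stood at 3659 and 3882 TPM. Rpl41, Rpl13a and Rps24 were the ribosomal protein genes among the 20, and Rpl41 was at 3696 and 4586 TPM. The cytoskeletal gene Actg1 (3116 and 2908 TPM), the peptidyl-prolyl isomerase gene Ppia (3225 and 3878 TPM) and the chaperone gene Hsp90ab1 (2773 and 2808 TPM) were close between the libraries. The other members came from the mitochondrial genome or were haemoglobin genes, and these ranged from near to far between the libraries. The cytochrome c oxidase subunit genes mt-Co2 and mt-Co3 were at 3760 and 3299 TPM and at 5830 and 2598 TPM, and Hba-a2, an alpha-globin gene, was at 595 and 9994 TPM.

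Growth and biosynthesis genes were high in the same tissue. All 11 imprinted growth genes examined were expressed, led by the fetal growth factor gene Igf2 (2329 and 2438 TPM, 2384 ± 76.9 SD, n = 2), then Gnas, which encodes the stimulatory G protein alpha subunit, at 1971 and 2081 TPM, and Mest at 1818 and 1827 TPM. Igf2 ranked 35 among all protein-coding genes. All 16 glycolysis genes were expressed, with Pkm, which encodes pyruvate kinase, at 1653 and 1667 TPM and the lactate dehydrogenase gene Ldha at 936 and 1126 TPM. All 20 genes of S phase and mitosis were expressed as well. Pcna, the sliding clamp of DNA polymerase, stood at 477 and 530 TPM, and Top2a, the topoisomerase of mitotic chromosomes, at 484 and 459 TPM. Among 44 collagen genes, 32 were expressed, led by Col3a1 at 387 and 292 TPM and the cartilage collagen gene Col2a1 at 360.0 and 257 TPM.

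Of 1186 listed and measured TFs, 818 (69.0%) were expressed, beside 57.7% of all protein-coding genes, and the numbered zinc-finger proteins made the difference. The lists do not hold every TF gene, and ranks among TFs are ranks within them. Leaving out the numbered zinc-finger proteins, 438 of 762 measured TFs (57.5%) were expressed, against 380 of 424 numbered zinc-finger genes (89.6%). Tead2, the DNA-binding partner of the Hippo pathway co-activators Yap and Taz, was the highest TF in both libraries, at 630 and 648 TPM, and ranked 190 among protein-coding genes. Maz, a zinc-finger factor of GC-rich promoters, stood at 405 and 385 TPM, and its range lay within that of the E-protein gene Tcf3 (411.5 and 353.8 TPM). No other TF reached these levels in both libraries.

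The next 12 TFs by mean level mixed factors of crest mesenchyme with factors of growth control. Each had a range across the libraries that overlapped that of its neighbour in the order, so the order among them is not resolved. The mesenchymal homeobox genes Prrx1 (345 and 246.5 TPM), Msx1 (263 and 315 TPM), Barx1 (273 and 167 TPM) and Pitx1 (251 and 169 TPM) were in this group. So was Twist1, the basic helix-loop-helix (bHLH) factor of crest mesenchyme, at 257 and 185 TPM. Its dimer partners of the E-protein family were all expressed, 3 of 3, with Tcf12 at 239.6 and 193 TPM. All 4 Id genes were expressed too, and they encode helix-loop-helix proteins without the basic region, which bind E-proteins but not DNA. Id3 (246 and 300.3 TPM) and Id2 (199 and 268 TPM) were among the 15 highest TFs. The tumour suppressor gene Trp53 (269 and 249.5 TPM), the zinc-finger gene Plagl1 (262 and 228 TPM), the homeobox cofactor gene Pbx2 (254 and 235.5 TPM) and the E2F partner gene Tfdp1 (230.4 and 223 TPM) completed the 15.

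**Figure D1:**
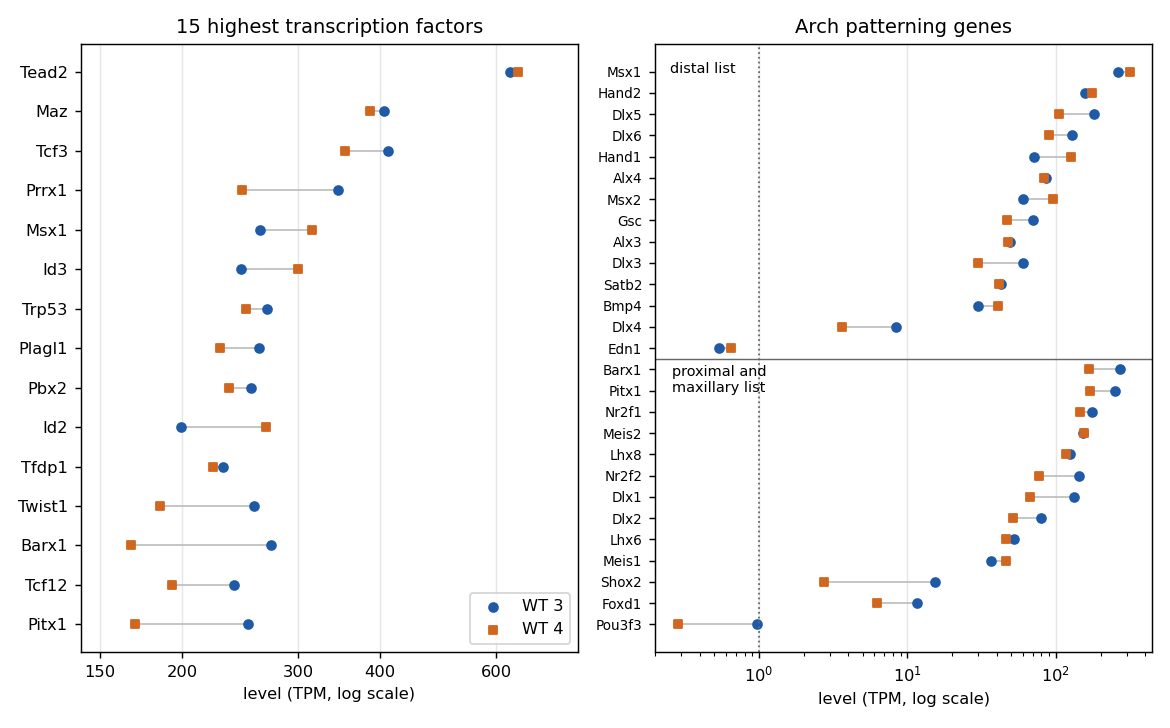
Levels of transcription factors and arch patterning genes, in TPM on a log axis. Circles are WT 3 and squares are WT 4, joined per gene, and the dotted line marks 1 TPM. On the left are the 15 highest transcription factors, with Tead2 apart from the rest at 630 and 648 TPM. On the right are the distal and the proximal and maxillary lists, in which Edn1 and Pou3f3 alone lay under 1 TPM in both libraries.

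TF families differed in how many members were expressed, beside the 57.7% of all protein-coding genes. Whole families were expressed for Dlx (6 of 6), Smad (8 of 8), Tead (4 of 4) and Tcf/Lef (4 of 4), and TALE homeobox genes, the Pbx, Meis, Tgif and Irx kind, were at 17 of 18. Sox genes were at 13 of 19 (68.4%), forkhead genes at 26 of 44 (59.1%, near the share of all protein-coding genes) and T-box genes at 7 of 17 (41.2%). By contrast, 12 of 68 paired-class homeobox genes, 5 of 30 proneural and myogenic bHLH genes and 2 of 15 Pou genes were expressed. Hox genes were nearly silent, with 2 of 39 expressed and 17 listed at 0 in both libraries. The expressed pair were Hoxb2 (1.74 and 1.92 TPM) and Hoxb3 (1.37 and 1.59 TPM), and Hoxa2, the selector gene of the second arch, was at 0.117 and 0.342 TPM.

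Genes listed for position within the arch were mostly expressed, both in the distal list and in the mixed list of proximal and maxillary genes. Of 14 genes of the distal mandibular arch, 13 were expressed, with a summed level of 1207 and 1200 TPM. Msx1 led these. Hand2, the bHLH gene of the distal arch, was at 158 and 175 TPM (166 ± 11.8 SD, n = 2), within the range of Dlx5, which was at 180.5 and 105 TPM. Dlx6 was at 128 and 89.99 TPM and Hand1 at 71.8 and 126 TPM. The exception was Edn1, which encodes the endothelin ligand that sets distal identity, at 0.542 and 0.649 TPM. Of 13 genes of the proximal and maxillary arch, 12 were expressed, with a summed level of 1448 and 1052 TPM. Barx1 and Pitx1 led, the nuclear receptor gene Nr2f1 stood at 176 and 146 TPM and Meis2 at 152 and 155 TPM, and Pou3f3, a maxillary gene, was the one below the threshold, at 0.975 and 0.283 TPM.

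Signalling genes showed a high share of receptors and a lower share of ligands. Receptors were expressed for 108 of 125 measured genes (86.4%) and ligands for 121 of 194 (62.4%), beside 57.7% of all protein-coding genes. The highest ligand genes were the growth factor gene Igf2 and the heparin-binding cytokine gene Mdk (midkine), at 2204.5 and 2507 TPM. The cytokine gene Mif followed, at 1197 and 1429 TPM. Ptn, the relative of Mdk, stood at 265 and 256 TPM. These lay far above the ligands of the classical patterning pathways, none of which reached 50 TPM in either library among the hedgehog, Fgf, Bmp, Tgfb, Wnt and Notch families.

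In the hedgehog pathway, 1 ligand gene and all 6 receptor and co-receptor genes were expressed. Shh, the ligand of the oral and pharyngeal epithelium, stood at 7.86 and 7.07 TPM, while Dhh was at 0.137 and 0.143 TPM. Smo, the transducer of the signal, was at 160.1 and 149.7 TPM. The receptor gene Ptch1, itself a target of the pathway, was at 78.7 and 69.8 TPM, the co-receptor gene Gas1 at 127 and 78.5 TPM and the co-receptor gene Cdon at 30.2 and 25.6 TPM. Of the Gli factors that carry the signal to DNA, Gli1 was at 70.5 and 72.6 TPM, Gli3 at 47.6 and 35.9 TPM and Gli2 at 41.1 and 31.9 TPM. Gli1 was above Gli3 and Gli3 above Gli2 in each library, although Gli3 of WT 4 lay below Gli2 of WT 3.

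In the Fgf pathway, 5 of 18 ligand genes and 4 of 5 receptor genes were expressed. Fgf8, the ligand of the oral ectoderm, was the highest at 28.4 and 29.1 TPM, ahead of Fgf10 at 9.02 and 7.82 TPM and Fgf9 at 2.62 and 3.26 TPM. Fgfr1 (171 and 161 TPM) and Fgfr2 (103 and 98.0 TPM) were the main receptors, and the receptor Fgfrl1, which lacks a kinase, stood at 69.0 and 67.8 TPM. Fgfr3 was lower at 8.89 and 15.5 TPM, and Fgfr4, at 1.23 and 0.974 TPM, reached the threshold in WT 3 alone.

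In the Tgfb superfamily, 6 of 22 Bmp and Gdf genes and 4 of 9 Tgfb and activin genes were expressed, against 12 of 14 receptor genes. Bmp4, a ligand of the distal ectoderm and mesenchyme, was at 29.9 and 40.8 TPM, Gdf11 at 34.8 and 33.0 TPM and Bmp7 at 22.7 and 15.7 TPM, and the ranges of Bmp4 and Gdf11 overlapped. Tgfb2 led its group at 14.5 and 13.1 TPM. On the receptor side stood Tgfbr1 at 109 and 77.7 TPM and the Bmp receptor gene Bmpr1a at 91.5 and 80.5 TPM. All 8 Smad genes, which carry these signals to the nucleus, were expressed.

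Wnt signalling combined 10 of 19 ligand genes with 19 of 20 receptor genes. Wnt5a, a mainly non-canonical ligand of the mesenchyme, stood at 38.4 and 31.7 TPM, the epithelial ligand gene Wnt6 at 32.0 and 25.1 TPM and Wnt5b at 15.5 and 17.4 TPM. The frizzled gene Fzd2 was at 121 and 95.5 TPM, Ryk, a receptor that binds Wnt5a, at 86.2 and 74.9 TPM and the co-receptor gene Lrp5 at 60.6 and 52.7 TPM. Of 33 secreted antagonists and modulators, 22 (66.7%) were expressed, not far from the 57.7% of all protein-coding genes and the 62.4% of all ligands. Fstl1, which binds Bmp ligands, led at 159 and 134 TPM, and Frzb, a secreted Wnt antagonist, was level between the libraries at 118 and 117 TPM.

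Endothelin genes were uneven. The receptor gene Ednra, through which the arch mesenchyme reads Edn1, stood at 38.0 and 24.8 TPM, and Ednrb at 1.04 and 1.27 TPM. Edn3 was the expressed ligand gene of the family, at 18.2 and 15.7 TPM, while Edn1 lay under the threshold in both libraries. Notch signalling was at moderate levels, with Jag2 at 18.3 and 15.4 TPM, Jag1 at 14.6 and 15.4 TPM and the receptor gene Notch3 at 76.4 and 63.7 TPM.

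Most guidance and contact signals were expressed. All 8 ephrin genes were, with 10 of 14 Eph receptor genes, 27 of 30 semaphorin, slit and netrin genes and 17 of 21 of their receptor genes. The ephrin gene Efna4 stood at 73.5 and 65.1 TPM, its family member Efnb2 at 71.2 and 44.4 TPM and the receptor gene Ephb4 at 123 and 110.2 TPM. Sema3f was at 137 and 104 TPM and the plexin gene Plxnb2, which encodes a semaphorin receptor, at 170.1 and 150.4 TPM, the highest of the 21 receptor genes in that list. Among receptor tyrosine kinases, 24 of 29 were expressed. Pdgfra, the Pdgf receptor of crest mesenchyme, was at 104 and 70.6 TPM, and its ligand genes Pdgfc (87.3 and 79.8 TPM) and Pdgfa (75.4 and 88.2 TPM) were at like levels.

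**Figure D2:**
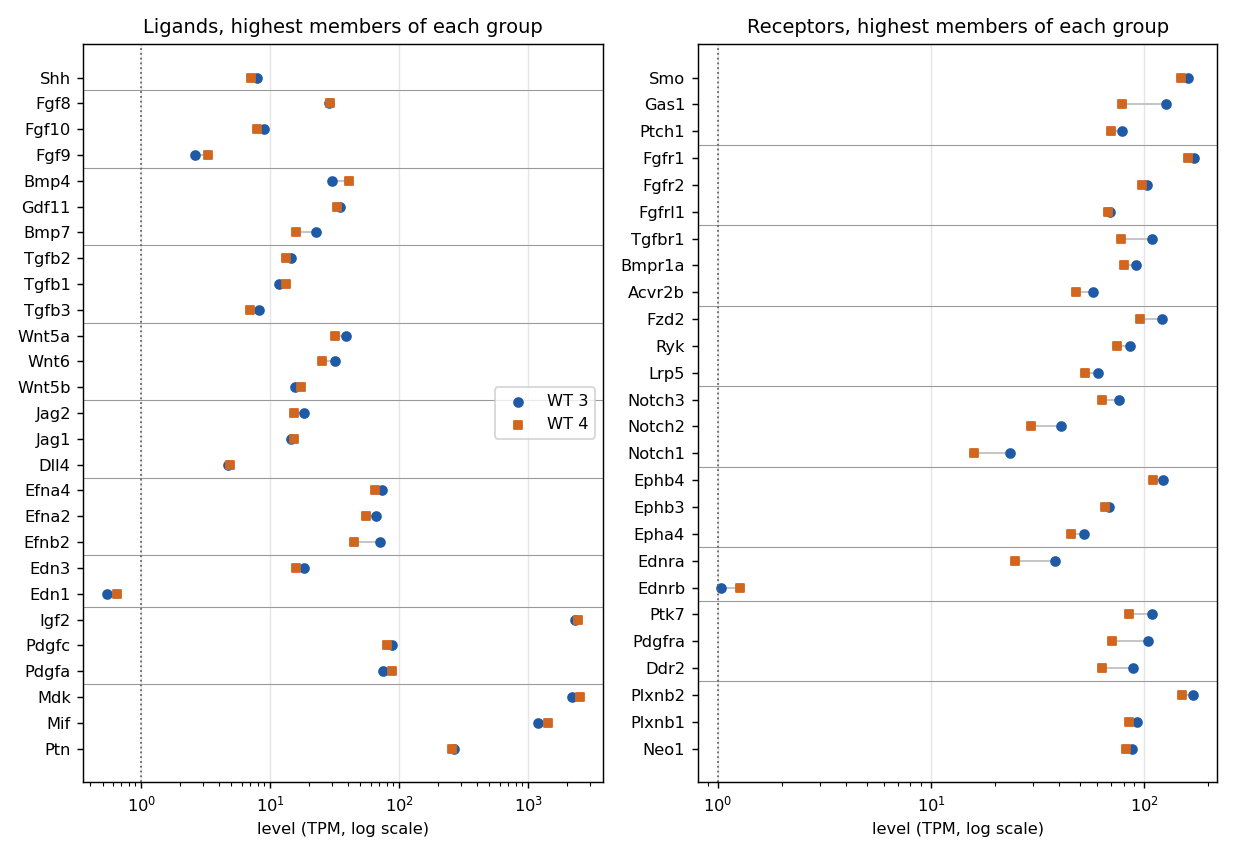
Levels of the 3 highest ligands (left) and receptors (right) of each signalling group, with 1 hedgehog ligand and 2 endothelins and endothelin receptors, in TPM on a log axis with horizontal lines between groups. Circles are WT 3, squares are WT 4 and the dotted line marks 1 TPM. Igf2, Mdk and Mif stand over 1000 TPM in both libraries, and of the ligands drawn Edn1 lies to the left of the line.

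The labelled tissue was checked against markers of the cell types it could hold. In bulk RNA, fewer cells of a type and less RNA per cell cannot be told apart, so the values below are levels and not cell numbers. Of all protein-coding genes 57.7% were expressed, so a list near that share does not by its count show that a cell type was present. Markers of crest mesenchyme were expressed in full, 17 of 17, with a summed level of 2057 and 1915 TPM. The lowest of them were Tfap2b at 14.3 and 10.1 TPM and Foxc1 at 8.13 and 3.36 TPM. All 18 markers of surface and oral epithelium were expressed at a lower sum of 498 and 476 TPM, among them the keratin genes Krt18 (57.1 and 70.1 TPM) and Krt8 (49.0 and 58.4 TPM), the adhesion gene Epcam (39.5 and 32.8 TPM) and Trp63 (31.0 and 23.8 TPM). Some genes sit in more than 1 list, such as Msx1 and Msx2 in both the crest and the distal list.

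Vessels and blood were present as well. All 14 endothelial markers were expressed, with sums of 348 and 379.6 TPM, and Cdh5, the cadherin of endothelial junctions, was at 36.18 and 36.01 TPM. All 13 erythroid markers were expressed, and their sum differed widely between the libraries, at 8233 and 38133 TPM. Macrophage markers were expressed for 10 of 14 genes, at sums of 46.3 and 62.8 TPM, with the lysosomal gene Cd68 at 13.1 and 16.6 TPM and the receptor gene Csf1r at 3.59 and 4.47 TPM. Platelet and megakaryocyte markers were at 5 of 7, led by Pf4 at 9.72 and 14.2 TPM.

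Other lineages were represented in part. Early cartilage and bone markers were expressed for 10 of 12 genes, with the chondrogenic factor gene Sox9 at 36.4 and 22.96 TPM and the osteogenic factor gene Runx2 at 3.71 and 2.65 TPM, while the cartilage matrix genes Acan (0.403 and 0.171 TPM) and Matn1 (0.0207 and 0 TPM) were below the threshold. Pharyngeal endoderm was at 7 of 10 (70%), with Foxe1 at 10.4 and 9.16 TPM. Muscle precursors of the arch core were at 6 of 12 (50%), below the share of all protein-coding genes. Their early factor gene Tcf21 stood at 3.26 and 3.68 TPM and Myf5 at 1.55 and 1.58 TPM, and Myog, which acts in differentiation, was at 0.637 and 0.406 TPM.

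Neural and distant tissues were low. Neuron markers were expressed for 3 of 12 genes, with Isl1, which also marks arch mesoderm and sits in the cardiac list, at 20.8 and 33.9 TPM, and the filament gene Prph listed at 0 in both libraries. Neural progenitor markers were at 3 of 12, glial markers at 2 of 8, yolk sac and liver markers at 2 of 8 and eye and ear markers at 1 of 10. The albumin gene Alb and the transthyretin gene Ttr were listed at 0. Over all 19 lists, 143 of 218 markers (65.6%) were expressed, beside 57.7% of all protein-coding genes.

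**Figure D3:**
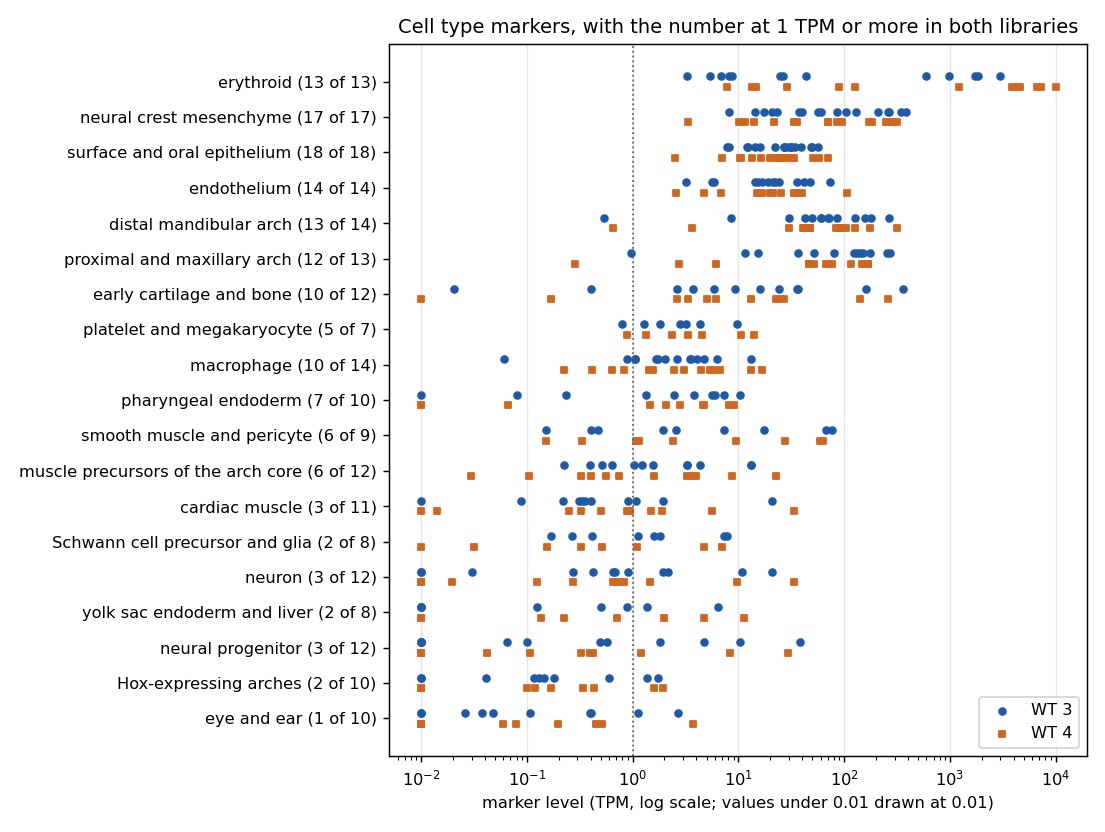
Levels of the markers of 19 cell types or tissues, in TPM on a log axis, 1 point per gene and library with values under 0.01 TPM drawn at 0.01. Circles are WT 3, squares are WT 4 and the dotted line marks 1 TPM. Crest mesenchyme, epithelium and endothelium lie wholly over the line, eye, ear and Hox-expressing arch markers lie mostly under it, and erythroid markers are shifted to higher levels in WT 4.

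Dominant transcripts were sought among 10416 genes at 5 TPM or more in both libraries, of which 1769 have 1 transcript in the files and 8647 have more. A transcript was called dominant where it was the highest in both libraries and carried at least 50% of the gene's TPM in each. This held for 5558 of the 8647 genes (64.3%), and 1262 (14.6%) had a transcript at 90% or more in both. The share of genes with a dominant transcript was 95.6% with 2 annotated transcripts, 83.1% with 3 to 4, 61.6% with 5 to 8 and 34.4% with more than 8. Counts were assigned to transcripts by the authors' program, whose estimates carry no error, so the pair of libraries is the available check. The top transcript was the same in both libraries for 7631 genes (88.3%).

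Patterning genes were mostly simple. Hand2 and Twist1 have 1 transcript each in the files. Gli2-201 carried 94.1% and 97.1% of Gli2 TPM, and Gli3-201 carried 94.6% and 95.7% of Gli3 TPM. Dlx5-201 was at 88.8% and 88.9%, and Msx1-201 at 89.8% and 87.3%. Bmp4 was divided between a pair of coding transcripts, Bmp4-202 at 48.0% in both libraries and Bmp4-201 at 42.3% and 43.6%. Fgf8 had no dominant transcript, and its highest, Fgf8-206, took 37.8% and 33.9%. Among the 7593 protein-coding genes with a shared top transcript, that transcript was annotated as other than protein-coding in 448 genes, with a retained intron in 187, as a target of nonsense-mediated decay in 142 and as a processed transcript in 117.

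Some genes choose between neighbouring exons of like sequence, and the choice was read from the TPM of the transcripts that hold each. Pkm encodes pyruvate kinase M1 with the upstream exon of such a pair and the embryonic and tumour form M2 with the downstream one. Transcripts with the upstream exon stood at 45.8 and 51.6 TPM and those with the downstream exon at 1514 and 1532 TPM, so that the downstream exon took 97.1% and 96.7%. The pair is shown because it carries the whole difference between the isoforms. Both exons are coding, on the plus strand of mm10, as given by the GENCODE M21 transcripts, and capitals mark the bases that do not match in an alignment of the pair, which shares 112 of the 167 bases of each exon.
Pkm upstream exon, chr9:59675029-59675195: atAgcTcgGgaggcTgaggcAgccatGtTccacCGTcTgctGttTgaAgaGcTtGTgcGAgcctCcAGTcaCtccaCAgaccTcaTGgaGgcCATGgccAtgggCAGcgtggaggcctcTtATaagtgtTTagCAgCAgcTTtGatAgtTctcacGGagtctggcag
Pkm downstream exon, chr9:59675568-59675734: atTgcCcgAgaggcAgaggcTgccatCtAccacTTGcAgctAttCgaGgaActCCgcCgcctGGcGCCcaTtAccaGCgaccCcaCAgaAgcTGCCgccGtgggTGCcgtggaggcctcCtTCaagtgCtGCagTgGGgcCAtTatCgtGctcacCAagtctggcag

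The Fgf receptor genes carry a like pair for the third immunoglobulin domain, the upstream exon giving the IIIb form typical of epithelium and the downstream exon the IIIc form typical of mesenchyme. In Fgfr2 the IIIb exon stood at 25.4 and 15.6 TPM and the IIIc exon at 33.4 and 36.01 TPM, so that IIIc took 56.8% and 69.8%. For Fgfr1 the IIIc exon took 81.9% and 60.4%, and for the lower Fgfr3 48.2% and 47.3%. Both forms of Fgfr2 were therefore present in each library, and the Fgfr1 and Fgfr2 shares moved by more between the libraries than that of Pkm.

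The choice ran the other way in H2afy, which encodes the histone variant macroH2A1 with a pair of alternative exons in its macro domain. The upstream exon stood at 274 and 223 TPM and the downstream exon at 14.7 and 8.75 TPM, which left 5.10% and 3.77% for the downstream exon. The exons are on the minus strand, with 100 and 91 bases of which 52 align.
H2afy upstream exon, chr13:56089758-56089857: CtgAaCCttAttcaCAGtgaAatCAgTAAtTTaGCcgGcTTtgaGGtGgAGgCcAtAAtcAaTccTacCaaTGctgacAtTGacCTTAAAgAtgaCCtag
H2afy downstream exon, chr13:56088252-56088342: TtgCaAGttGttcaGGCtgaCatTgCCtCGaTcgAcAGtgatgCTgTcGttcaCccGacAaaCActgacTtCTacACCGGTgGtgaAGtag

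Intermediate choices were seen in Tpm1, an actin-binding tropomyosin gene, where the downstream exon of the pair took 32.2% and 31.5%, and in the E-protein gene Tcf3, where a downstream exon of 227 bases took 63.7% and 65.8%. Matrix genes kept exons that are known from embryonic tissue. In Fn1, which encodes fibronectin, the exon of 270 bases that holds extra domain A was included at 87.2% and 81.5%, and the exon of 273 bases that holds extra domain B at 86.5% and 91.7%. In Col2a1, exon 2 of 204 bases, which marks the form made before chondrocytes mature, was included at 83.2% and 75.5%.

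**Figure D4:**
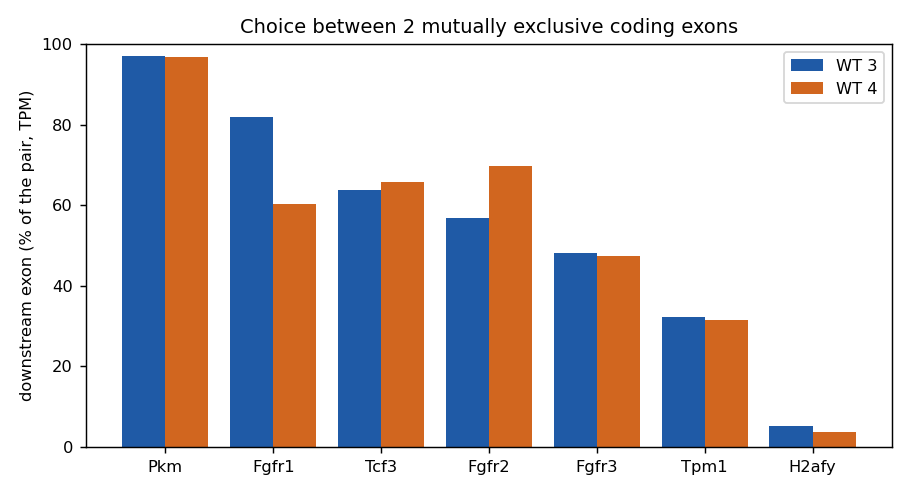
Share of the downstream exon in 7 pairs of mutually exclusive coding exons, in percent of the TPM of transcripts that hold 1 exon of the pair, for WT 3 (blue) and WT 4 (orange). Bars start at 0. Pkm used the downstream exon at 97.1% and 96.7%, H2afy at 5.10% and 3.77%, and Fgfr1 and Fgfr2 differed most between the libraries, in opposite directions.

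The libraries named different top transcripts for 1016 genes (11.7%), and in 163 of these each top transcript held at least 50% in its library. At 20 TPM or more, the 8 genes with the largest moves in share were Ak4, Daxx, Ift80, Nes, Rpl21, Tusc3, Ubap2 and Zscan21. In Nes, an intermediate filament gene, Nes-201 carried 98.0% in WT 3 and 27.4% in WT 4, while Nes-203 carried 0.0161% and 69.5%. In Tusc3, which encodes a subunit of the oligosaccharyltransferase, Tusc3-203 carried 88.3% and 6.404% and Tusc3-201 carried 0.339% and 85.1%. The level of the whole gene was 38.0 and 29.3 TPM for Nes and 46.2 and 45.3 TPM for Tusc3. Rpl21, a ribosomal protein gene with many copies in the genome, differed in level as well, at 225 and 1020.0 TPM.

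Between the libraries, 560 of the 13591 genes with a mean of 1 CPM or more (4.12%) were at least 2-fold apart in CPM, 357 (2.63%) higher in WT 4 and 203 (1.49%) higher in WT 3. Among the 13100 protein-coding genes compared, 395 (3.02%) were this far apart, 236 (1.8%) higher in WT 4 and 159 (1.21%) higher in WT 3. The median difference (log2 of WT 4 over WT 3) was 0.01, and 9693 genes (71.3%) lay between 0.8 and 1.25 times. At a mean of 5 CPM or more, 208 of 11077 genes (1.88%) were 2-fold apart, 136 (1.23%) higher in WT 4 and 72 (0.65%) higher in WT 3, and at 20 CPM or more 84 of 8135 genes (1.03%). The exact counting interval (95%, Clopper-Pearson) lay wholly past 2-fold for 303 genes. A trend with transcript length ran through the pair. Across 5 equal groups of 10849 genes by length, from the shortest to the longest, the median difference was 0.17, 0.08, -0.00, -0.07 and -0.17. Values below keep the trend unless stated. Values with the trend removed are given as well for the erythroid, arch, Dlx, Id, mitochondrial, ribosomal, glycolysis and collagen lists. The trend was not removed for the counts of TFs, ligands and receptors, or for the muscle, platelet, macrophage and cardiac lists.

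Among listed patterning and signalling genes, more were called 2-fold higher in WT 3 than in WT 4. Of 849 listed TFs compared, 11 (1.30%) were 2-fold higher in WT 4 and 28 (3.30%) higher in WT 3. The shares of all protein-coding genes compared were 1.8% and 1.21%. The TF lists are not complete. Nr1h5, a nuclear receptor gene given below as higher in WT 4, is outside them and was not counted. Of 131 ligand genes, 0 were higher in WT 4 and 6 (4.58%) higher in WT 3. Of 111 receptor genes, 0 were higher in WT 4 and 2 (1.80%) higher in WT 3, beside 1.21% of all protein-coding genes. The 6 ligand genes were Wnt10b, Bmper, Fgf5, Ntn1, Chrdl1 and Dll1, and the receptor genes were Ngfr and Bmpr1b, all chosen here by this count. Bmpr1b, a Bmp receptor of skeletal precursors, was the highest of these 8, at 33.8 and 15.4 CPM. Bmper and Chrdl1 are secreted antagonists or modulators, which were counted with the ligands. Wnt10b (2.24 and 0.467 CPM), Fgf5 (2.24 and 0.862 CPM) and Dll1 (2.26 and 1.12 CPM) were low. Wnt10b and Fgf5 passed the filter on the mean through WT 3 alone, so their place in the count depends on the difference itself. In TPM, Chrdl1 (4.32 and 3.41) and Dll1 (2.05 and 1.64) were less than 2-fold apart, while the rest of the 6 ligand genes stayed past 2-fold.

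Erythroid genes were apart as a whole list. All 13 markers were at least 2-fold higher in WT 4, with a median difference of 1.91 (log2 of CPM). With the length trend removed, all 13 were still higher in WT 4, with a median of 1.70. The size differed among the globins. The genes of the embryonic globins Hbb-y (914 and 2488 CPM), Hbb-bh1 (553 and 1434 CPM) and Hba-x (663 and 1946 CPM) were 1.44, 1.38 and 1.55 apart on the log2 scale. The alpha-globin genes Hba-a1 (334.5 and 1339.8 CPM) and Hba-a2 (160.5 and 2979 CPM), used in the fetus and adult, were 2.00 and 4.21 apart. The adult beta-globin genes Hbb-bs (13.2 and 1950 CPM) and Hbb-bt (2.97 and 462 CPM) were 7.20 and 7.28 apart. Hbb-bh0, an embryonic beta-like gene outside the 13, went the other way, at 2.75 and 0.560 CPM. Hba-a1 and Hba-a2 are close copies, as are Hbb-bs and Hbb-bt, so the division of counts within each pair is uncertain. Erythroid factor and enzyme genes moved alongside, with Alas2, the first enzyme of haem synthesis in red cells, at 22.2 and 129 CPM, the membrane protein gene Slc4a1 at 57.6 and 216 CPM and the factor gene Gata1 at 2.87 and 7.75 CPM.

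Among single genes higher in WT 4, the Y-linked genes Eif2s3y (0.101 and 52.2 CPM), Ddx3y (0.203 and 47.8 CPM), Uty (0.748 and 21.4 CPM) and Kdm5d (3.57 and 71.5 CPM) were 4 of the 12 that led. Nr1h5, a nuclear receptor gene, was at 0.154 and 62.7 CPM, a difference of 8.67 (log2, counting interval 7.62 to 9.82). Rsad2, an interferon-induced antiviral gene, was at 0.121 and 13.5 CPM, a difference of 6.80 (5.66 to 8.26). Apol11b, of the apolipoprotein L family, had no count in WT 3 and 12.5 CPM in WT 4, at least 207-fold higher when set against a floor of 3 counts per library. Fam46c, which encodes a poly(A) polymerase, was at 4.14 and 30.3 CPM.

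Genes higher in WT 3 were led by Grip2, a scaffold gene of glutamate receptors, at 122 and 1.54 CPM, which is 79.4-fold, on a single transcript that is annotated as a target of nonsense-mediated decay. The gene model RP24-219P17.7, named for a clone, followed at 11.5 and 1.12 CPM. The collagen gene Col8a2 was at 46.6 and 8.497 CPM and the matrix gene Smoc2 at 21.1 and 5.56 CPM. Of the TF genes among the 12, the homeobox gene Gbx2 was at 16.1 and 3.08 CPM, a difference of -2.39 (-2.77 to -2.03), the double homeobox gene Duxbl1 at 9.47 and 1.92 CPM, Osr2, a factor of the palate and tooth field, at 12.7 and 3.03 CPM, and Shox2, a factor of the palate and proximal jaw, at 16.8 and 4.11 CPM, a difference of -2.03 (-2.36 to -1.71). The kinase gene Dclk1 (52.3 and 17.04 CPM), the basal keratin gene Krt5 (8.70 and 2.97 CPM), the protocadherin gene Pcdh19 (30.8 and 11.1 CPM) and the aldo-keto reductase gene Akr1e1 (22.5 and 8.20 CPM) made up the 12.

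Arch lists leaned in different ways. In the proximal and maxillary list, 11 of 13 genes were lower in WT 4, with a median difference of -0.45, and Shox2 and Pou3f3 were past 2-fold. Nr2f2 was at 184 and 104 CPM, Dlx1 at 143 and 80.6 CPM and Barx1 at 186 and 126 CPM. All 6 Dlx genes were lower in WT 4, with a median of -0.73 and Dlx4 past 2-fold. The distal list had 8 genes higher and 5 lower among the 13 compared, with a median of 0.09. Hand1 was at 66.3 and 122 CPM, Msx2 at 69.7 and 120.2 CPM and Bmp4 at 24.9 and 37.9 CPM, all higher in WT 4, while the distal Dlx genes were lower. All 4 Id genes were higher in WT 4, with a median of 0.58. Without the length trend, the medians were 0.39 for Id genes, 0.19 for the distal list, -0.49 for the proximal list and -0.80 for Dlx genes. Among other markers, the glial and crest gene Sox10 was at 2.10 and 0.0467 CPM, the myogenic precursor gene Msc at 3.09 and 0.7003 CPM and the endoderm and tooth field gene Pax9 at 11.1 and 4.59 CPM. Others were higher in WT 4. In the muscle list, which held Msc, 5 of 7 genes compared were higher there (median 0.30), with the actin gene Actc1 past 2-fold at 0.888 and 2.61 CPM. All 6 platelet markers compared were higher (median 0.67), as were 9 of 12 macrophage markers (median 0.47, 2 past 2-fold) and all 4 cardiac markers (median 0.83), and any part of the blood content in other differences was not tested.

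Lists of general cell functions differed by unequal amounts. Of the 13 genes of the mitochondrial genome, 12 were lower in WT 4, with a median of -0.77 and 2 past 2-fold, and removing the length trend left all 13 lower, with a median of -0.92. Of 84 ribosomal protein genes, 73 were higher in WT 4, with a median of 0.29, but with the length trend removed 46 were higher and 38 lower, with a median of 0.02. Glycolysis genes were higher in WT 4 for 15 of 16, with a median of 0.19. With the length trend removed, 13 of 16 were higher, with a median of 0.14. Collagen genes were lower for 29 of 35, with a median of -0.17, which became -0.07 without the length trend.

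**Figure D5:**
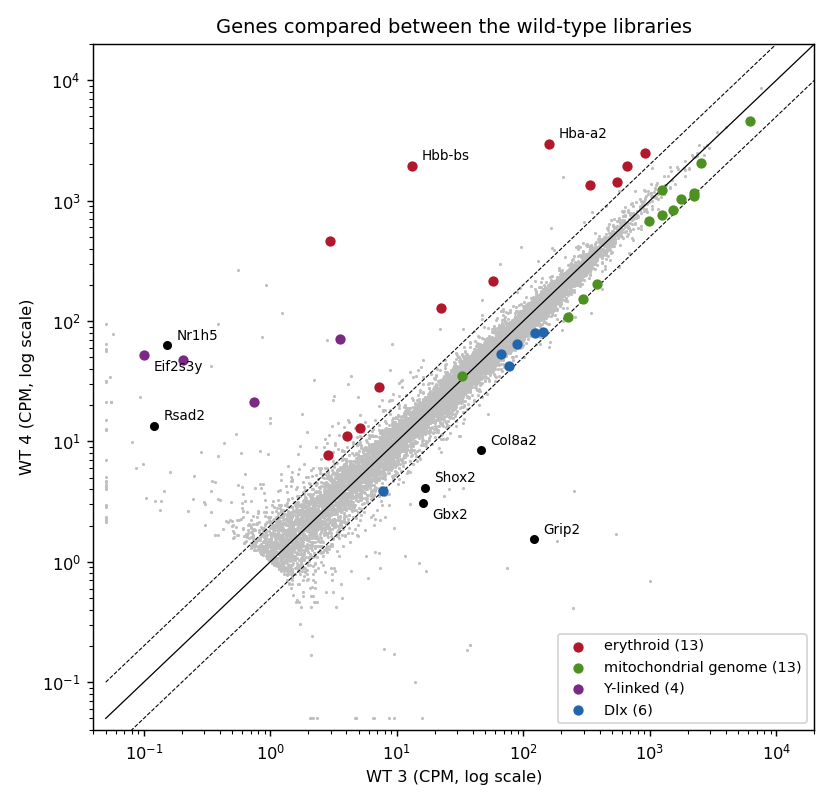
CPM of the 13591 compared genes in WT 3 (x axis) and WT 4 (y axis), both on log axes, with equality as a solid line, 2-fold as dashed lines and values under 0.05 drawn at 0.05. Coloured points are the 13 erythroid, 13 mitochondrial, 4 Y-linked and 6 Dlx genes. Every erythroid point lies above the upper dashed line, and the Dlx points lie below equality.

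The extreme ratios were mostly those of pseudogenes. Of 102 genes at least 10-fold apart, 74 were pseudogenes and 26 protein-coding. Some were copies of highly expressed genes, and the pairs given here were chosen after their values were seen. Rpl3-ps1 was at 998 and 0.692 CPM and its parent gene Rpl3 at 207 and 1579 CPM, a difference of 2.93 for the parent that shrank to 0.39 for the sum of both. Rps13-ps1 was at 252 and 3.84 CPM and Rps13 at 169.7 and 406 CPM, and their sum differed by -0.04. Vcp-rs was at 0.560 and 264 CPM and Vcp, which encodes a segregase ATPase, at 846 and 614 CPM, and their sum differed by 0.05. For Rpsa-ps10 (538 and 1.71 CPM) and Rpsa (1044 and 1875 CPM) the sum differed by 0.25. In each of these 4 pairs the sum was closer between the libraries than either member. For another pair, Cbx3-ps6 (1.65e-05 and 21.4 CPM) and Cbx3 (370 and 269 CPM), the sum still differed by -0.35, against -0.46 for Cbx3 alone.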

How the data were processed

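Bulk polyA RNA-seq of wild-type E10.5 MNPs was taken from WT 3 and WT 4, grouped by genotype in the labels. The other wild-type and all mutant samples were not analysed here. The authors mapped paired-end reads to mm10 and determined abundance in Strand NGS, with no version or annotation named in the sources used here. The labels' processing notes also name DESeq2. The labels and the methods name different sequencers. The deposited files hold estimated counts per transcript, which the authors made by assigning mapped reads to transcripts in that program. Of these values 56.8% and 49.8% lay more than 0.01 from a whole number. They were summed by symbol and scaled to CPM over each library total. TPM used exon lengths from GENCODE M21 (mm10), matched without version for 103723 transcripts. The 1406 unmatched held 0.685% and 0.677% of counts and got no TPM. The libraries differed by more than counting noise (chi-square over genes, 62.6 per degree of freedom).

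Expressed meant 1 TPM or more in both libraries, and compared meant a mean CPM of 1 or more. A low gene can thus be compared through the library where it is higher, which favours large ratios among low genes. No test was run. Ratios carry exact counting intervals, with a floor of 3 counts per library (0.0606 and 0.140 CPM). Estimates for near-identical transcripts, paralogs, overlapping genes and pseudogene copies are uncertain, and a difference of the libraries in sequencing, dissection or embryos was not tested. Strand use in counting is not given.

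Named genes were the 20 highest protein-coding genes, the 15 highest TFs, the up to 5 highest members of each list, all cell type markers, genes with known isoforms, the 8 largest moves in transcript share at 20 TPM or more, and the 12 protein-coding genes per direction with the largest ratio at a mean of 5 CPM or more, leaving out models numbered as Gm or Rik (a clone-named model was kept), pseudogenes and ribosomal protein genes. Members and lists were chosen with earlier results of these data known. Alternatives covered thresholds, filters, scaling (edgeR 4.0.16, DESeq2 1.42.0 in R 4.3.3), the length trend, single transcripts and each library alone. Steps were tested on simulated data in Python 3.11.15 with numpy 2.4.6, pandas 2.3.3 and scipy 1.17.1. A few items chosen by these rules are not reported here.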

Additional observations from a re-analysis of the deposited data

How the results depend on the processing

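Counts of differing genes moved with the filter and the fold. Against 560 genes (357 higher in WT 4, 203 higher in WT 3), no filter beyond 3 counts over both libraries gave 3427 (2683 and 744). Of these 78.3% were higher in WT 4, against 63.7% in the report. The floor of 3 counts is 0.140 CPM in WT 4 but 0.0606 CPM in WT 3. A gene at or under the floor in both libraries is therefore called higher in WT 4 by construction. The 78.3% cannot be read as a direction of the differences. A mean CPM of 5 or more gave 208 (136 and 72), a fold of 1.5 gave 1482 (852 and 630), and each transcript on its own gave 6067 (3526 and 2541). Protein-coding genes alone gave 236 higher in WT 4. Scaling by trimmed means gave 567, size factors 565 and removing the length trend 538, and these shifted the median of all genes by at most 0.04 on the log2 scale.

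A dominant share of 75% left 32.4% of genes in place of 64.3%. With each library on its own, 12942 to 12974 protein-coding genes, 448 to 458 TFs, 124 to 131 ligands, 109 to 110 receptors and 148 to 152 markers were expressed, and 71.0% to 72.7% of genes had a dominant transcript. Short lists with few expressed markers, such as neuron (3, or 6 at 0.5 TPM) and Hox-expressing arches (2, or 0 at 2 TPM), depended on the threshold. No paired analysis was possible because WT 3 and WT 4 are of 1 group and no groups were compared. Depth limits low genes, since 3 counts correspond to 0.140 CPM in WT 4 and 0.0606 CPM in WT 3.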
